A study of Homo sapiens with 8 samples.

Results

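The nuclear genes for 10 proteins that copy, transcribe or stabilise the messages of mitochondrial DNA (mtDNA) were followed in RNA captured by APEX-seq: POLG, POLG2, TWNK, SSBP1, TFAM, POLRMT, TFB2M, TFB1M, TEFM and LRPPRC. They were taken by symbol from the 60664 genes of each count table, and all 10 were found once in each table and passed the filter on low counts in both compartments. The cells were HEK293T, a transformed human embryonic kidney line. They carried APEX2, a peroxidase used here to tag RNA within its reach with biotin, and the biotinylated RNA was recovered on streptavidin beads. The 4 groups, with 2 libraries each, were labelled NLS (APEX2 in the nucleus), unlabelled NLS control, labelled OMM (APEX2 at the outer mitochondrial membrane) and unlabelled OMM control. Per the labels, all cells expressed APEX2. A SMARTer stranded total RNA kit was used for NLS and a TruSeq stranded mRNA kit, with poly(A) selection, for OMM. The library names also give Ribominus for all NLS libraries and Trizol for all OMM libraries. Compartment cannot be told apart from the kit or from these steps. Which step the controls left out, whether the cells were 1 clone, and whether both libraries of a group were grown apart is not said in the labels. The p-values therefore reflect the spread among these libraries alone, and that spread may be technical.

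All 10 proteins are made in the cytosol and act in the mitochondrial matrix. POLG and its accessory subunit POLG2 form the mtDNA polymerase, the helicase TWNK unwinds the template, and SSBP1 coats single strands. TFAM packages mtDNA and bends its promoters, where POLRMT, the mitochondrial RNA polymerase, starts with TFB2M and is kept elongating by TEFM. TFB1M, a relative of TFB2M, methylates the small mitochondrial rRNA, and LRPPRC stabilises mtDNA-encoded mRNAs together with SLIRP. Matrix proteins usually enter through an amino-terminal presequence rich in basic residues, and ribosomes making such proteins can sit at the mitochondrial surface, which is why the mRNAs are of interest at OMM.

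The reference transcripts in GENCODE 29 (GRCh38) were read over the first 40 codons, where such a presequence is encoded. Arginine and lysine codons numbered 5 to 9 in the 10 members, and exceeded aspartate and glutamate codons in every one, by 3 in POLG up to 8 in TWNK. The stretches are printed for POLG2 and TFB1M, which were higher in labelled NLS libraries, for TFAM and TFB2M, which fell most there, and for SSBP1, which differed most clearly at OMM. They run 5′ to 3′ from the start codon, with arginine and lysine codons in capitals.
POLG2: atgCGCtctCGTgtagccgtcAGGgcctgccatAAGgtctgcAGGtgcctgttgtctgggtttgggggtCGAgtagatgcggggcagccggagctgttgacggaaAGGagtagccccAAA
TFB1M: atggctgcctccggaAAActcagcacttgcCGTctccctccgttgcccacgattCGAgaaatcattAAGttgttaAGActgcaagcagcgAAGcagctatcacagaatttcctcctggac
TFAM: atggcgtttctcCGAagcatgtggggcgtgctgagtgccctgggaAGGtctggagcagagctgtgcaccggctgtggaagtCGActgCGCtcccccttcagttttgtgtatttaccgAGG
TFB2M: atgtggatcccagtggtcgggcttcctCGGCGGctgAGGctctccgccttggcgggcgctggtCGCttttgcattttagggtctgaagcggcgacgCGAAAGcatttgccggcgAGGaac
SSBP1: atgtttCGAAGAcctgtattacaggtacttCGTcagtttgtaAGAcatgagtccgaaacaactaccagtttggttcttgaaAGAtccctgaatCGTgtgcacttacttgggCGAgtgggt
In the order printed they hold 8, 6, 5, 7 and 7 basic codons, so the members that rose and those that fell overlap in this count.

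Total counts were 8039176 to 9531568 in labelled NLS libraries, 20746393 to 21096586 in NLS controls, 34705126 to 52421161 in labelled OMM libraries and 35165227 to 41660431 in OMM controls. All 7 markers listed for HEK293-type cells were detected in every group, although PAX2 was at 0 in 1 labelled OMM library and 1 OMM control. They summed to 222 to 259 CPM (a gene's share of its library's counts) in labelled NLS libraries and 782 to 833 CPM in NLS controls, and to 700 to 733 CPM in labelled OMM libraries and 650 to 726 CPM in OMM controls. The 6 markers of other cell types summed to at most 2.53 CPM in any library. The nuclear RNAs MALAT1, NEAT1 and KCNQ1OT1 summed to 7579 to 8668 CPM in labelled NLS libraries and 1263 to 1345 CPM in NLS controls. Among genes averaging at least 100 counts, the median gap between the 2 libraries of a group was 1.10-fold and 1.12-fold in labelled and control NLS libraries, but 1.49-fold and 1.44-fold in labelled and control OMM libraries. Unless said otherwise CPM values are scaled with TMM factors, and libraries are named by the numbers in the column names, which differ from those in the sample titles.

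In the nucleus, 2 of the 10 mRNAs, POLG2 and TFB1M, were higher after labelling on the TMM scale. Another 6 were lower on that scale: TFAM, TFB2M, TWNK, POLRMT, SSBP1 and LRPPRC. These calls are at an adjusted p under 0.05 in edgeR's quasi-likelihood test. POLG and TEFM did not pass. As unscaled shares, with library size alone, TFAM and TFB2M were still called lower, where 3363 of all 20858 genes were lower and 9115 higher. TWNK, POLRMT, SSBP1 and LRPPRC were then not called, with LRPPRC at a log2 fold change of 0.16. On the TMM scale the libraries of the 2 arms did not overlap for any member. Of the members 3 were above the controls, as were 45.1% of all genes, and 7 were below, as were 37.7%. Of all 20858 genes tested, 28.8% were called higher and 28.5% lower, and among the 13856 protein-coding ones 19.4% were higher and 39.8% lower. The median log2 fold change was -0.50 over the members, -0.26 over protein-coding genes and 0.14 over all genes tested. These values compare labelled with unlabelled libraries, and do not measure molecules per cell or the number of contributing cells. Without TMM scaling the members together held 1235 and 1361 CPM in the labelled NLS libraries, against 1175 and 1157 CPM in the controls.

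**Figure D1:**
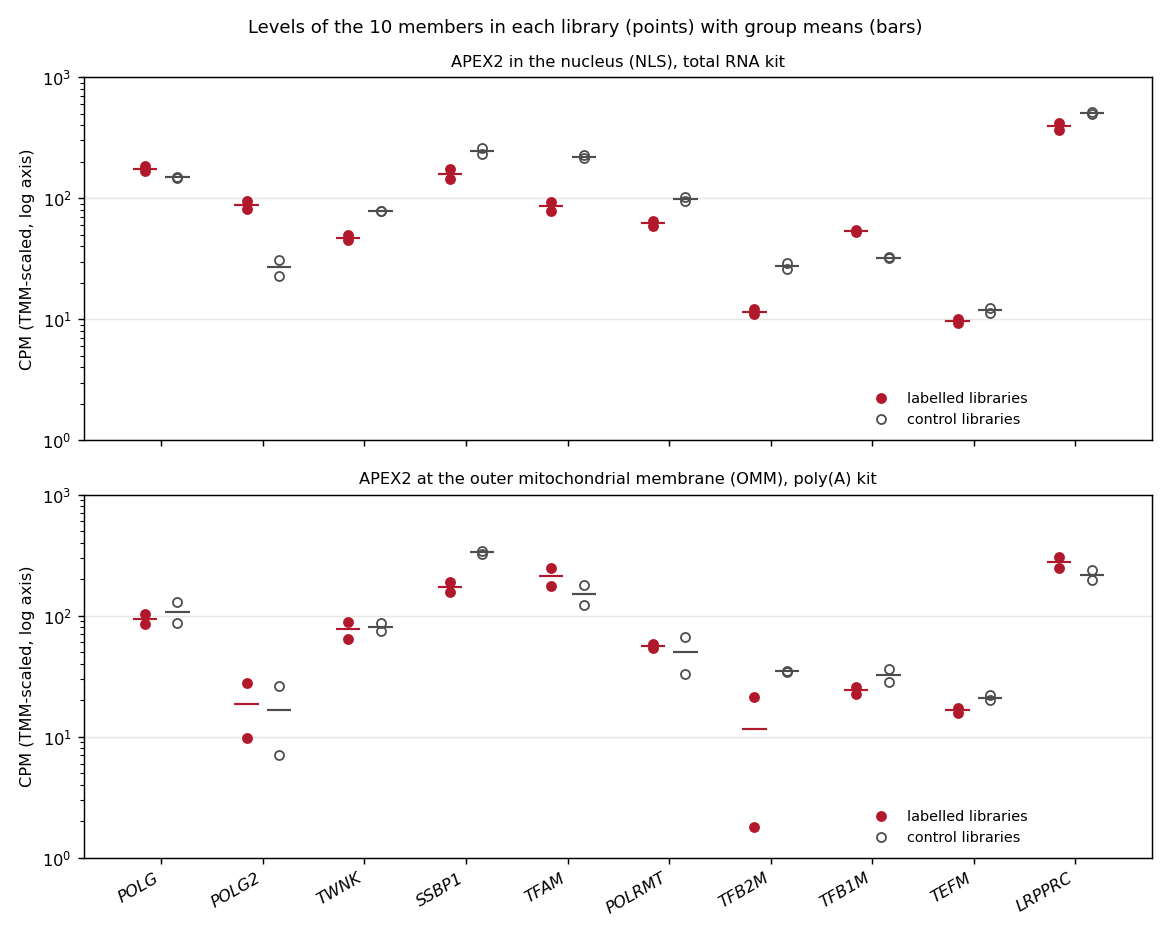
Levels of the 10 members in CPM on a log axis, with a point for each library and a bar for each group mean, for NLS (top) and OMM (bottom). At NLS the points of labelled and control libraries are apart for every member, and at OMM they overlap for 5 of 10, with TFB2M at 1.79 and 21.2 CPM in the labelled libraries.

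Among the replication factors the polymerase subunits stood apart from each other. POLG2, on the minus strand of chromosome 17 from 64477785 to 64497036 (GRCh38, ENSG00000256525), had 80.9 and 94.8 CPM in labelled NLS libraries 1 and 3, against 22.7 and 31.1 CPM in NLS control libraries 1 and 3. Both labelled libraries were far above both controls, a 3.27-fold rise (log2 fold change 1.71 ± 0.17, SE, adjusted p = 0.000102) that lay at percentile 94.1 of the tested protein-coding genes. POLG, the catalytic subunit, on the minus strand of chromosome 15 from 89305198 to 89334861 (ENSG00000140521), had 185 and 166 CPM in labelled NLS libraries 1 and 3, against 148 and 149 CPM in the controls. Its labelled libraries were also above the controls, but the difference did not pass (0.24 ± 0.10, adjusted p = 0.0614). POLG was called higher with DESeq2 size factors (adjusted p = 0.0391), with library size alone (0.76, adjusted p = 0.000392), after removal of the length trend (0.45, adjusted p = 0.00277) and without labelled library 3 (0.35, adjusted p = 0.0411), whereas with the GC trend removed it was at 0.043 (adjusted p = 0.733). POLG shares 458 exon bases, 7.66% of its exons, with FANCI on the opposite strand, and the strand setting of the counting is not given in the sources used here, so reads there cannot be told apart. FANCI itself gave -0.27 ± 0.09 at NLS (adjusted p = 0.0359).

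TWNK, the helicase, on the plus strand of chromosome 10 from 100987367 to 100994401 (ENSG00000107815), had 45.2 and 49.3 CPM in labelled NLS libraries 1 and 3, against 78.3 and 78.6 CPM in the controls. The labelled libraries were lower by a log2 fold change of -0.73 ± 0.11 (adjusted p = 0.000932), at percentile 32.0 of protein-coding genes. TWNK shares 149 exon bases with MRPL43 on the opposite strand, which was also lower at NLS (-0.97 ± 0.19, adjusted p = 0.00352). SSBP1, the single-strand binding protein, on the plus strand of chromosome 7 from 141738321 to 141787922 (ENSG00000106028), had 143 and 174 CPM in labelled NLS libraries 1 and 3, against 234 and 259 CPM in the controls. It fell with a log2 fold change of -0.64 ± 0.12 (adjusted p = 0.00246), at percentile 35.4 of protein-coding genes. With the trend of transcript length removed SSBP1 was no longer lower, at 0.10 (adjusted p = 0.503), and its reference transcript of 989 bases is the shortest of the 10.

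TFAM had the largest fall of the members. On the plus strand of chromosome 10 from 58385022 to 58399221 (ENSG00000108064), it had 79.0 and 93.1 CPM in labelled NLS libraries 1 and 3, against 226 and 213 CPM in the controls. This is a 2.55-fold fall (log2 fold change -1.35 ± 0.11, adjusted p = 4.39e-05), at percentile 11.4 of protein-coding genes. TFAM has processed copies elsewhere in the genome, of which TFAMP1 had 0 counts in every library and TFAMP2 at most 3. These counts do not show how reads shared by TFAM and a copy were counted.

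TFB2M and POLRMT, which meet TFAM at the mtDNA promoter, also fell, whereas TFB1M rose. TFB2M, on the minus strand of chromosome 1 from 246540560 to 246566324 (ENSG00000162851), had 11.0 and 12.1 CPM in labelled NLS libraries 1 and 3, against 26.1 and 29.2 CPM in the controls. Its fall was of nearly the same size as that of TFAM (log2 fold change -1.26 ± 0.18, adjusted p = 0.000663), at percentile 13.8 of protein-coding genes. POLRMT, on the minus strand of chromosome 19 from 617224 to 633604 (ENSG00000099821), had 64.9 and 59.4 CPM in labelled NLS libraries 1 and 3, against 95.1 and 103 CPM in the controls. The difference was smaller for the polymerase (-0.67 ± 0.11, adjusted p = 0.00129), at percentile 34.1 of protein-coding genes. TEFM, the elongation factor, on the minus strand of chromosome 17 from 30897336 to 30906820 (ENSG00000172171), had the lowest level per length of the members at NLS, with 105 and 98 counts or 9.25 and 10.1 CPM in labelled NLS libraries 1 and 3, against 12.5 and 11.4 CPM in the controls. It gave -0.30 ± 0.23 (adjusted p = 0.297), with the largest standard error of the 10 at NLS, and was called once the GC trend was removed (-0.62, adjusted p = 0.0494). TEFM shares 542 exon bases, 16.8% of its exons, with the antisense gene AC130324.3 and 301 with ADAP2, both on the opposite strand.

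TFB1M, on the minus strand of chromosome 6 from 155257509 to 155314493 (ENSG00000029639), had 54.3 and 52.5 CPM in labelled NLS libraries 1 and 3, against 32.5 and 32.0 CPM in the controls. It rose with a log2 fold change of 0.73 ± 0.12 (adjusted p = 0.00158), at percentile 81.3 of protein-coding genes. Its exons share 215 bases, 7.86% of their length, with TIAM2 on the opposite strand, which gave 0.26 ± 0.11 (adjusted p = 0.0666). LRPPRC, the RNA stabiliser, on the minus strand of chromosome 2 from 43886508 to 43996005 (ENSG00000138095), had 364 and 421 CPM in labelled NLS libraries 1 and 3, against 514 and 494 CPM in the controls. Its fall was the smallest of the 6 called (-0.36 ± 0.11, adjusted p = 0.0196), and at percentile 46.0 of protein-coding genes it lay close to their median. It was not called without labelled library 1 (-0.21, adjusted p = 0.216) or after removal of the length trend (-0.24, adjusted p = 0.0632).

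**Figure D2:**
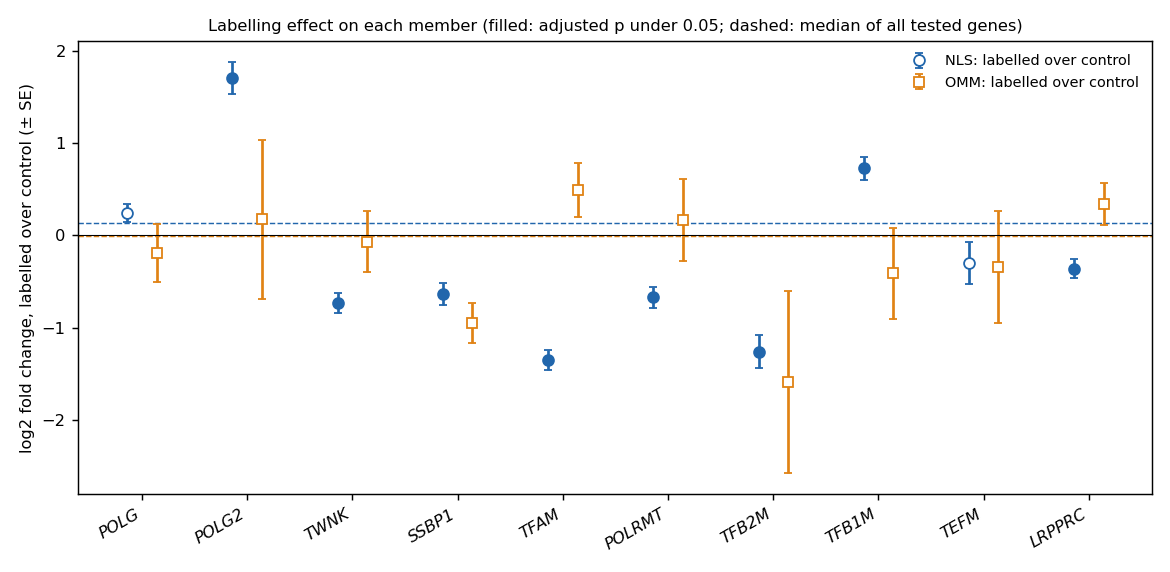
Log2 fold change of labelled over control libraries for each member at NLS (blue circles) and OMM (orange squares), with bars for the standard error and filled symbols for an adjusted p under 0.05. At NLS 8 members are filled and at OMM 0, and the OMM bars of POLG2, TFB2M and TEFM are long.

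In the authors' deposited table the same comparison gave log2 fold changes of 1.75 for POLG2, 0.77 for TFB1M, -1.31 for TFAM and -1.22 for TFB2M. Its p-value was 0.0511 for POLG and 0.62 for TEFM in the authors' deposited table, and between 1.66e-20 for TFAM and 0.00872 for LRPPRC for the other 8. The deposited fold changes of the members match those of DESeq2 run here on the same counts, so they are not separate evidence.

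The size of these changes depends on what the libraries are scaled to. Scaling by library size alone moved the median of all genes to 0.65. Then 3 members were called higher (POLG2, TFB1M and POLG) and 2 lower (TFAM and TFB2M). Of all 20858 genes tested, 9115 were then called higher and 3363 lower. LRPPRC was at 0.16 and TEFM at 0.22, both turned positive. A change of scaling adds nearly the same constant to every gene, so distances to the median of all genes were bound to hold. They were -1.49 for TFAM, -0.50 for LRPPRC and 1.57 for POLG2, under both TMM and library size alone. The choice of reference does matter. Against the protein-coding median under TMM the distances were -1.095 for TFAM, -0.10 for LRPPRC and 1.965 for POLG2.

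**Figure D3:**
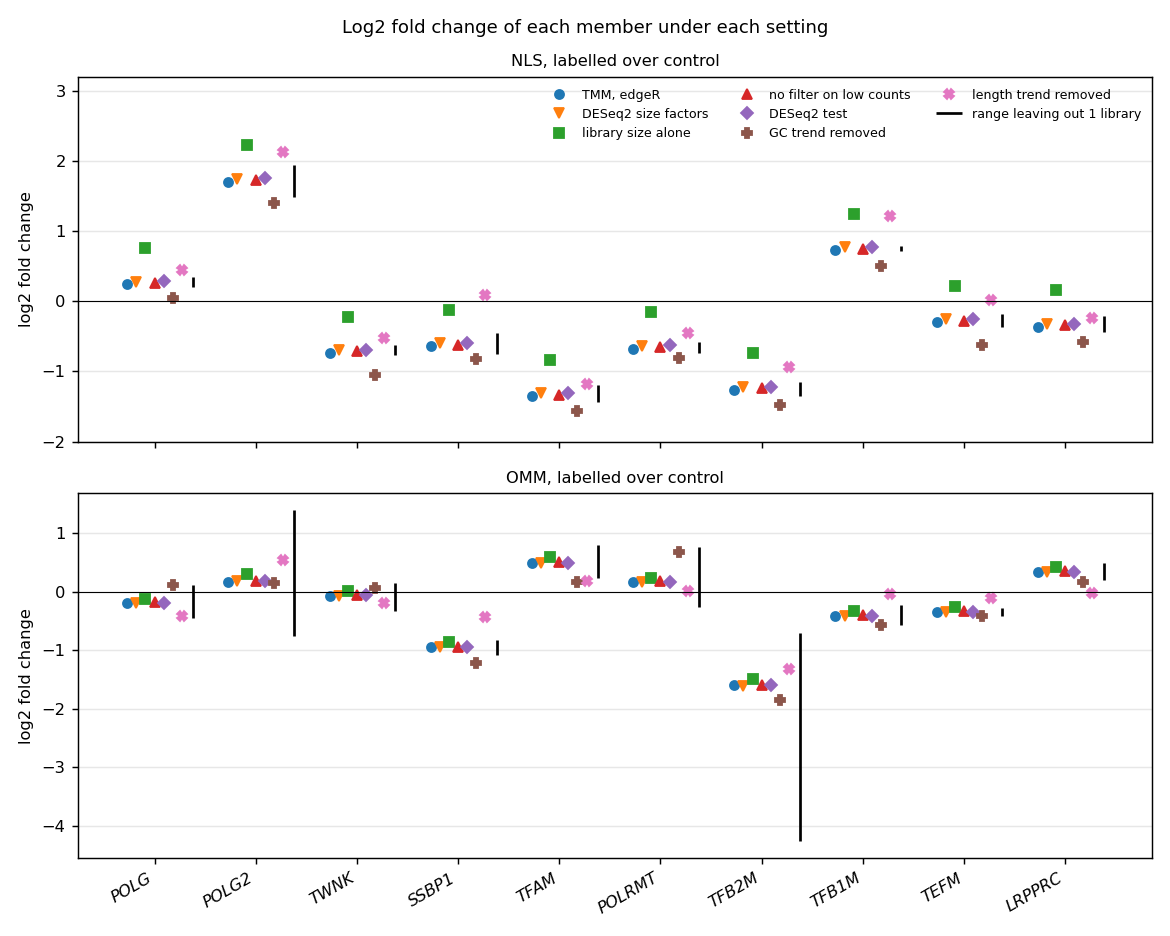
Log2 fold change of labelled over control libraries for each member under 7 settings of scaling, filter, test and trend, NLS above and OMM below, with a black bar for the range when 1 library was left out. At NLS the library-size setting shifts all members upward together, and at OMM the bars of TFB2M (-4.26 to -0.70) and POLG2 (-0.76 to 1.40) are the widest.

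Ratios within a library do not depend on scaling. POLG2 had 0.438 and 0.570 counts per POLG count in labelled NLS libraries 1 and 3, against 0.154 and 0.208 in the controls. TFB1M had 4.93 and 4.33 counts per TFB2M count in the labelled NLS libraries, against 1.24 and 1.09 in the controls. Both ratios were higher in each labelled library than in either control, and no test was run, since 2 libraries a side are too few for an exact test to pass the threshold. TFAM had 1.22 and 1.57 counts per POLRMT count in the labelled NLS libraries and 2.38 and 2.07 in the controls, again without overlap.

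**Figure D4:**
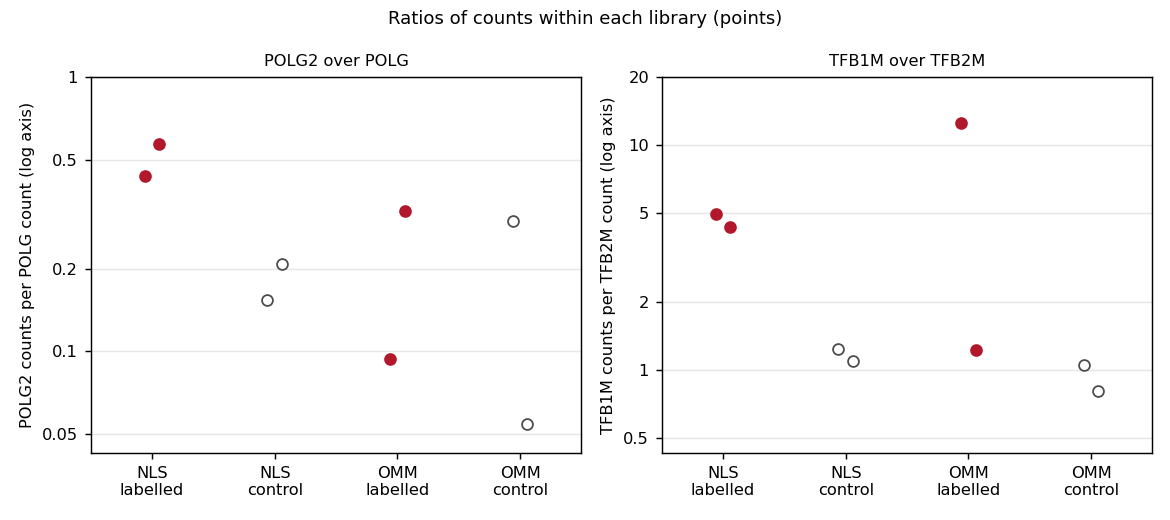
Counts of POLG2 per POLG count (left) and of TFB1M per TFB2M count (right) in each library, on log axes, for labelled and control NLS and OMM libraries. The labelled NLS points lie above the NLS control points in both panels, while the 2 libraries of an OMM group can differ by more than the arms do, as with 12.5 and 1.22 TFB1M counts per TFB2M count in labelled OMM libraries 2 and 3.

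Levels can be ordered only per length of transcript. In the labelled NLS libraries SSBP1 led with 160 ± 21.8 CPM per kilobase (SD, n = 2), followed by LRPPRC with 62.0 ± 6.33, POLG2 with 56.2 ± 6.28, POLG with 39.0 ± 2.93 and TFB1M with 37.5 ± 0.874. POLRMT (16.2 ± 1.01), TFAM (15.9 ± 1.84) and TWNK (13.04 ± 0.801) formed a lower tier, with TFB2M (6.26 ± 0.423) and TEFM (5.13 ± 0.336) last, in CPM per kilobase. LRPPRC and POLG2, POLG and TFB1M, and POLRMT and TFAM lay within their spread of each other. TFAM ranked 7 and POLG2 ranked 3 in the labelled NLS libraries, whereas in the NLS controls TFAM ranked 3, with 40.5 ± 1.69 CPM per kilobase, and POLG2 ranked 8, with 17.2 ± 3.76. The lead of SSBP1 rests on the short reference transcript: over all annotated exons LRPPRC had 40.2 and SSBP1 31.8 CPM per kilobase in the labelled NLS libraries.

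At the outer mitochondrial membrane 0 of the 10 members passed edgeR's test in either direction, where 0.139% of 14438 genes were called higher and 0.0554% lower. At an unadjusted p under 0.05 SSBP1 alone was counted, against 10.6% of all genes. DESeq2 called 1 member, again SSBP1, as lower, with 5.87% of its genes called lower and 6.72% higher. The libraries did not overlap for 5 members: LRPPRC was above the controls in both labelled libraries, and SSBP1, TFB2M, TFB1M and TEFM were below. Of all genes, 21.3% were above and 22.5% below in this way. The members' median log2 fold change was -0.13, against 0.02 for protein-coding genes and -0.0017 for all genes.

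SSBP1 was the member with the clearest difference at OMM. It had 156 and 189 CPM in labelled OMM libraries 2 and 3, against 342 and 325 CPM in OMM control libraries 3 and 4. The log2 fold change was -0.95 ± 0.22 (adjusted p = 0.150 in edgeR, unadjusted p = 0.00219), and DESeq2 gave -0.94 with an adjusted p of 1.26e-06. Without labelled library 3 edgeR called it too (adjusted p = 0.0372). With the trend of transcript length removed the value was -0.43 (adjusted p = 0.668).

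TFAM and LRPPRC, both called lower at NLS, had positive values at OMM that did not pass. TFAM had 176 and 248 CPM in labelled OMM libraries 2 and 3, against 180 and 122 CPM in control libraries 3 and 4, so the groups overlapped (log2 fold change 0.49 ± 0.29, adjusted p = 0.602). LRPPRC had 248 and 303 CPM in labelled OMM libraries 2 and 3, against 239 and 195 CPM in the controls, a gap between the arms narrower than that within each (0.34 ± 0.23, adjusted p = 0.667).

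For TFB2M and POLG2 single libraries set the value at OMM. TFB2M had 95 and 770 counts in labelled OMM libraries 2 and 3, or 1.79 and 21.2 CPM, against 34.3 and 34.9 CPM in the controls. Its log2 fold change of -1.59 ± 0.98 (adjusted p = 0.622) was -0.70 without labelled library 2 and -4.26 without labelled library 3, where edgeR called it (adjusted p = 0.00185). POLG2 had 9.73 and 27.6 CPM in labelled OMM libraries 2 and 3, against 26.0 and 7.04 CPM in the controls, a fold change of 0.18 ± 0.86 on the log2 scale (adjusted p = 0.997) that was -0.76 without labelled library 3, -0.47 without control library 4 and 1.40 without control library 3. The standard error for POLG2 was thus 0.86 at OMM and 0.17 at NLS.

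The remaining 5 members gave no call under any setting tried at OMM. POLG had 104 and 84.9 CPM in labelled OMM libraries 2 and 3, against 87.2 and 129 CPM in the controls, and TWNK 89.4 and 64.2 CPM, against 86.3 and 75.1 CPM. POLRMT had 57.9 and 54.3 CPM in the labelled OMM libraries, against 33.0 and 66.7 CPM in the controls. In all 3 of these the groups overlapped. TFB1M had 22.3 and 25.9 CPM in the labelled OMM libraries, against 36.0 and 28.2 CPM in the controls, and TEFM 17.3 and 15.7 CPM, against 22.0 and 20.01 CPM. Their log2 fold changes ran from -0.41 ± 0.49 for TFB1M to 0.17 ± 0.44 for POLRMT, with adjusted p from 0.904 to 0.996.

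Per kilobase of transcript the same 3 genes headed the order in both OMM groups as in the NLS controls. SSBP1 led with 174 ± 23.2 CPM per kilobase in labelled OMM libraries and 337 ± 12.3 in OMM controls, followed by LRPPRC with 43.4 ± 6.17 and 34.3 ± 4.91 and TFAM with 39.2 ± 9.28 and 27.9 ± 7.60. LRPPRC and TFAM lay within their spread of each other in both groups. TFB2M was last in the labelled OMM libraries with 6.22 ± 7.42 and POLG2 last in the OMM controls with 10.6 ± 8.58 CPM per kilobase, with SDs close to or above the level itself. Over all annotated exons TFAM led in the labelled OMM libraries, with 37.8 CPM per kilobase, ahead of SSBP1 with 34.6.

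The labelling effects in the 2 compartments were compared by the interaction term of a joint edgeR fit of the 8 libraries. In it 1.4% of 23178 genes were called higher and 6.23% lower at NLS than at OMM. That fit shares 1 spread per gene across both compartments, although their spreads differ. A difference can thus have a smaller SE than the OMM effect fitted apart, as for TFB1M (0.34 against 0.49). Of the members, TFAM passed: its effect was lower at NLS than at OMM by a log2 difference of -1.82 ± 0.35 (adjusted p = 0.0307). This difference lay at percentile 12.8 of protein-coding genes. TFB1M had a difference of 1.16 ± 0.34 (adjusted p = 0.0985), LRPPRC of -0.68 ± 0.23 (adjusted p = 0.151) and TWNK of -0.64 ± 0.31 (adjusted p = 0.275). POLG2, with 1.58 ± 0.98, was far from passing (adjusted p = 0.428), and for SSBP1 the difference was 0.34 ± 0.21 (adjusted p = 0.431). Without OMM control library 4 TFB1M (1.31, adjusted p = 0.0452) and POLRMT (-1.43, adjusted p = 0.0275) were called as well, and without labelled OMM library 3 TFB2M was (2.98, adjusted p = 0.0105). The call on TFAM was lost with DESeq2 size factors (adjusted p = 0.0758), with library size alone (0.0728), with limma-voom (0.0889) and without any 1 of the 4 NLS libraries (0.0898 to 0.175), with the difference between -1.90 and -1.42 in these fits. These differences carry the change of kit and of the preparation steps in the library names along with that of compartment.

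Of 35 genes of mtDNA maintenance outside the members, 19 (54.3%) fell and 9 (25.7%) rose at NLS, where 39.8% of protein-coding genes fell and 19.4% rose. The list's median log2 value was -0.50, against -0.26 for protein-coding genes. With library size alone 9 of the 35 were called lower and 13 higher, as were 3363 and 9115 of all 20858 genes tested. The highest were EXOG, a mitochondrial nuclease, with 111 ± 12.4 CPM in labelled and 45.1 ± 1.62 CPM in control NLS libraries (1.30 ± 0.12, adjusted p = 7.13e-05), OGG1, which excises oxidised guanine, at 1.14 ± 0.15, and TK2, the mitochondrial thymidine kinase, at 1.05 ± 0.18. The lowest were APEX1, a repair endonuclease unrelated to the peroxidase used for labelling, with 59.1 ± 9.75 CPM in labelled and 222 ± 13.9 CPM in control NLS libraries (-1.91 ± 0.13, adjusted p = 2.39e-05), and the ribonucleotide reductase subunits RRM1 (-1.69 ± 0.09) and RRM2B (-1.58 ± 0.13).

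Of 51 genes of mitochondrial transcription termination and of RNA processing, modification and decay, 24 (47.1%) fell and 15 (29.4%) rose at NLS, near the protein-coding shares of 39.8% and 19.4%. The list's median log2 value of -0.27 was practically the protein-coding median of -0.26. With library size alone 12 were lower and 23 higher, as were 3363 and 9115 of all 20858 genes tested. MRM1, an rRNA methyltransferase, gave 1.39 ± 0.34, PTCD2, a pentatricopeptide repeat protein, 1.24 ± 0.14, and TRNT1, which adds CCA ends to tRNAs, 1.14 ± 0.13. Both HSD17B10 (-1.80 ± 0.13) and TRMT10C (-1.64 ± 0.12), subunits of mitochondrial RNase P, were among the lowest. SLIRP, the partner of LRPPRC, had 38.8 ± 5.61 CPM in labelled and 105 ± 11.7 CPM in control NLS libraries (-1.44 ± 0.14, adjusted p = 9.54e-05), a larger fall in the fitted value than that of LRPPRC, though this difference was not tested.

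Among 11 nuclear regulators of genes for mitochondrial proteins, 5 (45.5%) fell and 3 (27.3%) rose at NLS, also near the protein-coding shares of 39.8% and 19.4%. With library size alone 3 were lower and 5 higher, as were 3363 and 9115 of all 20858 genes tested. The coactivators PPARGC1A (1.23 ± 0.36), PPARGC1B (0.86 ± 0.10) and PPRC1 (0.35 ± 0.09) were the 3 that rose. GABPA, a DNA-binding factor of many such promoters, gave -1.16 ± 0.13, YY1 -1.03 ± 0.09 and SP1 -0.98 ± 0.09.

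At OMM edgeR called 0 genes of these 3 lists, where 0.139% of all genes were called higher and 0.0554% lower. At an unadjusted p under 0.05 there were 4, 7 and 1 among 34, 51 and 11 tested, against 10.6% of all genes. DESeq2 called 2 higher and 3 lower in the maintenance list, 3 higher and 2 lower in the RNA list and 1 higher among the regulators. Of all genes it called 6.72% higher and 5.87% lower. The transcripts made or stabilised with the help of the members, 13 mRNAs and 2 rRNAs encoded in mtDNA, were lower in both compartments. All 15 were called lower at NLS (median -2.68), where 28.5% of all genes were. At OMM edgeR called 7 of 15 lower (median -2.13), against 0.0554% of all genes. All 15 had a negative value there, and DESeq2 called all 15 lower, against 5.87% of all genes. MT-CO1, a cytochrome c oxidase subunit, had 997 and 947 CPM in labelled and 6626 and 4969 CPM in control NLS libraries, and 1647 and 2604 CPM in labelled and 10610 and 7151 CPM in control OMM libraries. MT-RNR2, the large mitochondrial rRNA, gave -2.38 ± 0.19 at NLS and -2.28 ± 0.31 at OMM (adjusted p = 0.0430), and MT-ND1, a complex I subunit, -2.79 ± 0.19 at NLS and -2.13 ± 0.33 at OMM (adjusted p = 0.0552). No nuclear-encoded member fell as far as the median of these transcripts in either compartment.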

How the data were processed

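The authors deposited whole-number read counts per gene, made with HTSeq per the file headers and the submitters' processing notes, which list STAR, Trimmomatic, DESeq2, bedtools and SAMtools too and give hg38 and GRCh38.p13 as builds. For tool versions and the strand of counting, the entry is: not given in the sources used here. The authors also deposited log2 fold changes of labelled over control. A p-value per gene was deposited beside each, and whether it is adjusted is not stated in the header. For the members it lay close to the adjusted p of DESeq2 run here on the same counts. At NLS the deposited value was 0.0511 for POLG and 1.66e-20 for TFAM, and DESeq2's adjusted p was 0.0526 and 1.71e-20.

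The members and lists were chosen with earlier results of these data known. Count columns were given to groups by compartment and arm in their names; 4 further count columns matched no sample and were not used. Each compartment was fitted apart with edgeR 4.0.16 in R 4.3.3 (robust quasi-likelihood F test, two-sided; TMM factors; filterByExpr with minimum count 10; prior count 0.125), and p-values were adjusted by the Benjamini-Hochberg method over all genes tested, with a threshold of 0.05. Compartments were compared through the interaction term in 1 fit of all 8 libraries. Each standard error was obtained as the absolute log2 fold change over the root of F. Alternatives were DESeq2 1.42.0, limma-voom 3.58.1 (interaction), DESeq2 size factors, library size alone, no low-count filter, removal of GC or length trends (lowess, span 0.3), leaving out each library, and a replicate block at NLS. The script was tested on simulated data, with a spread set well below that of the OMM and joint fits and changes larger than most members show. That test does not bear on how the OMM and joint fits perform.

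Lengths, GC content, coordinates and coding starts come from the principal GENCODE 29 transcript; 58396 of 60664 gene identifiers matched. Gene names follow 1 rule. All 10 members are named, and of each pathway list the 3 highest and the 3 lowest called genes whose mean log2 CPM is 2 or more and whose labelled libraries lie on 1 side of both controls; of the mtDNA-encoded products MT-ND1, MT-CO1 and MT-RNR2 are named. Protein sequences were not analysed here. Reads are not independent molecules, so depth bounds counting error only.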

Additional observations from a re-analysis of the deposited data

Results flagged for a closer look

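The labelling effect on TFAM differed between compartments by the interaction term of the joint edgeR fit, which shares 1 spread per gene across both compartments. TFAM was at a log2 fold change of -1.35 ± 0.11 at NLS and 0.49 ± 0.29 at OMM (SE), and the difference was -1.82 ± 0.35 (adjusted p = 0.0307). It lay at percentile 12.7 of all genes tested and 12.8 of protein-coding genes. In that fit 6.23% of all genes were called lower. Compartment cannot be told apart here from the kit, poly(A) selection or the preparation steps in the library names. Over 12 alternatives the adjusted p ran from 0.000107 to 0.175 and 5 of them called it, while the difference stayed between -2.18 and -1.42. Both labelled NLS libraries were below both NLS controls, whereas labelled OMM library 2 (176 CPM) lay below OMM control library 3 (180 CPM).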

How the results depend on the processing

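A replicate block on the numbers 1 and 3 in the NLS column names, which differ from those in the titles, was added after seeing the data. It gave 6 members lower and 2 higher and changed no member's call, with 5698 genes lower and 5083 higher over all. Same-numbered NLS libraries did not deviate together (correlation -0.0222 across 20858 genes), so the numbers are not taken to pair them. At OMM the arms share 1 number, which leaves no block to fit. Over 11 alternatives 106 of 110 member fold changes kept their direction at NLS, over 10 at OMM 90 of 100 did, and over 12 for the difference between compartments 116 of 120 did. The alternatives refit the same libraries, so these values are not separate checks. With library size alone 2 members were lower at NLS, LRPPRC turned to 0.16 and TEFM to 0.22; with the length trend removed SSBP1 turned to 0.10 and TEFM to 0.015. Under library size alone the lists of maintenance, RNA processing and regulators had 9, 12 and 3 lower and 13, 23 and 5 higher at NLS. The mtDNA-encoded products then had 12 lower at OMM. At OMM 1 member was lower without the low-count filter and 1 with DESeq2's test. At OMM POLG turned to 0.11 and TWNK to 0.071 with the GC trend removed, TWNK to 0.011 with library size alone, and LRPPRC to -0.011 with the length trend removed. Leaving out 1 library gave 5 to 6 members lower and 2 to 3 higher at NLS, 0 to 2 lower and 0 higher at OMM, and 0 to 2 lower and 0 to 1 higher for the difference between compartments. In those fits OMM values ran from -0.45 to 0.12 for POLG, -0.76 to 1.40 for POLG2, -0.32 to 0.15 for TWNK and -0.25 to 0.77 for POLRMT, and the compartment difference from -0.55 to 2.98 for TFB2M and -0.053 to 0.13 for TEFM. The difference between compartments had 0 members lower with DESeq2 size factors, library size alone or limma-voom. The causes were not tested.

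Over all genes, 5999 were higher and 5945 lower at NLS, against 9115 and 3363 with library size alone and 3077 to 8425 and 4520 to 6953 without 1 library. At OMM 20 and 8 became 48 and 16 with library size alone, 1007 and 879 with DESeq2, 321 and 145 without the filter, 11 and 0 with the length trend removed, 19 lower with the GC trend removed, and 128 to 335 and 76 to 279 without 1 library. The difference between compartments gave 325 higher and 1445 lower, against 995 and 764 with limma-voom, 676 higher without the filter, 626 lower with DESeq2 size factors, 585 lower with library size alone, and 0 to 1454 and 0 to 2749 without 1 library. The lowest member counts at NLS were those of TEFM, with 98 to 219 per library. At OMM the lowest was TFB2M, with 95 counts in labelled library 2. That library had the highest total count, 52421161, and TFB2M had 770 counts in labelled library 3.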

Other observations

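The 10 reference transcripts differ widely in layout. The 3′ untranslated region ran from 38 bases in POLG2 to 4147 in TFAM, GC content from 38.4% in TFAM to 66.3% in POLRMT, and the number of exons from 4 in TEFM to 38 in LRPPRC. Over the 10 members, which share the same libraries, Spearman's correlation of the NLS log2 fold change was -0.56 with the length of the 3′ untranslated region, -0.33 with transcript length and 0.35 with GC content. At OMM the correlation of the log2 fold change was 0.71 with transcript length and 0.27 with the length of the 3′ untranslated region. The net count of basic codons in the first 40 codons had -0.37 at NLS and 0.14 at OMM. These values describe 10 genes and carry no test.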
